A study of Mus musculus with 6 samples.

Results

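Class 3 semaphorins, plexins, neuropilins, Slits and Robo receptors are guidance genes: they steer growing axons and vessels and are also used between the cells of the kidney's filter, the glomerulus. Such genes were followed here, chosen by name: the secreted ligands Sema3a, Sema3e and Sema3g, the receptors Plxna2, Plxnd1 and Nrp2, and Robo2 with the secreted ligands Slit2 and Slit3. They are 9 of the 28327 genes with a transcript in the Drop-seq tables and 9 of the 49492 genes of the bulk tables. All 9 had at least 1 Drop-seq transcript, and Sema3a had none in replicate 4. In the GENCODE vM21 annotation of GRCm38 all are protein-coding, and no other gene's exons overlap theirs. Sema3a (chr5:13125414-13602565), Sema3e (chr5:14025276-14256689) and Slit2 (chr5:47983138-48307733) lie on the plus strand of chromosome 5. Sema3g (chr14:31217860-31230352), Plxna2 (chr1:194618218-194816869), Nrp2 (chr1:62703285-62818695) and Slit3 (chr11:35121224-35708507) also lie on plus strands, and Plxnd1 (chr6:115954811-115995005) and Robo2 (chr16:73891839-74411825) on minus strands.

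Secreted class 3 semaphorins bind neuropilins, which pass the signal on through plexins of the A class, whereas Sema3e is known to bind plexin D1 directly. Slit proteins bind Robo receptors, and in podocytes Robo2 is known to join the nephrin complex of the filtration slit through the adaptor Nck. A glomerulus holds podocytes, which wrap its capillaries, endothelial cells, which line them, and mesangial cells, which hold the loops together. Parietal epithelial cells line the capsule around it, and smooth muscle and renin cells lie in the wall of the feeding arteriole.

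The samples came from 8-week-old male CD1 IGS outbred mice. The 4 Drop-seq libraries (replicates 1 to 4) held glomerular cells that had been dissociated and fixed in 80% methanol in PBS. Drop-seq captures single cells in droplets and counts transcripts by molecular identifiers (UMIs). A bulk mRNA library was made from 95 ng of RNA of sorted, fixed cells of dissociated glomeruli, and another from 500 ng of RNA of whole isolated glomeruli without fixation. How many animals stand behind a library is not given in the labels. The p-values therefore set differences between cell types only against their spread over the 4 libraries, part of which can be technical.

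In all, 15465 barcodes with 18557558 UMIs were deposited, between 3528543 and 6411775 UMIs per library. After filters, 13993 cells remained with a median of 965 UMIs. Cells were clustered without the guidance genes and named by marker genes: 10454 podocyte-like, 1857 endothelial-like, 927 tubular-like (distal tubule and collecting duct markers), 379 parietal epithelial-like, 324 mural-like (smooth muscle, renin and mesangial markers) and 52 immune-like cells. The libraries did not split evenly over the podocyte-like clusters: replicate 4 gave 1362 of the 1577 cells of cluster 11. The parietal epithelial-like cluster scored 0.62 for parietal and 0.58 for podocyte markers, and the collecting duct cluster (218 of the tubular-like cells) 0.62 for distal tubule and collecting duct and 0.59 for parietal markers, so these names are uncertain. The 2 bulk libraries had 24555632 (dissociated cells) and 28407317 (whole glomeruli) reads on genes. Of the barcode sequences, 15 occurred in more than 1 library, 7 of them in all 4.

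For each library, the UMIs of a cell type were added up and scaled to 1000000 (CPM), and each type was compared with the mean of the other 4 tested types over the 4 libraries (edgeR quasi-likelihood test, library as a block, Benjamini-Hochberg adjusted over 7558 genes, called at 0.05). Of the 9 genes, 7 had enough UMIs for the test; Sema3a and Slit2 had not. In podocyte-like cells 3 of the 7 were higher and 2 lower, against 23.4% and 22.2% of all genes tested. In endothelial-like cells 3 were higher and 2 lower (28.9% and 20.2% of all genes). In mural-like cells 4 were higher and 3 lower (12.3% and 9.1%), in parietal epithelial-like cells 3 were higher and none lower (10.1% and 6.07%), and in tubular-like cells 1 was higher and 5 were lower (28.8% and 24.8%). These counts over 7 genes are a description, and the mural-like count includes Slit3, which passed the filter on low counts only through mural-like cells. Nrp2 passed it only through endothelial-like and mural-like cells. Plxnd1 passed it through these types and replicate 3 of the parietal epithelial-like cells. Plxna2 passed it through these types and replicate 4 of the tubular-like cells. The median log2 fold of the 7 was -1.16 for podocyte-like, 0.98 for parietal epithelial-like, 0.03 for endothelial-like, 2.46 for mural-like and -1.90 for tubular-like cells, where the median of all genes lay between -0.11 and 0.04. Some of these folds rest on a type with no UMI; with each such value set to 3 UMIs over the 4 libraries, the medians of pooled CPM were -2.11, 0.22, -0.02, 1.97 and -2.21 in the same order of types.

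Counted over pairs of cell types, 49 of 70 tests (7 genes in 10 pairs) passed. The share of all genes that passed was 6.85% for parietal epithelial-like against podocyte-like cells, 20.3% for mural-like against parietal epithelial-like cells, 25.1% for endothelial-like against mural-like cells, 32.4% for mural-like against podocyte-like cells and 34.9% for endothelial-like against parietal epithelial-like cells. It was 38.7% for parietal epithelial-like, 39.1% for mural-like, 58.7% for podocyte-like and 61.8% for endothelial-like cells, each against tubular-like cells, and 58.7% for endothelial-like against podocyte-like cells.

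**Figure D1:**
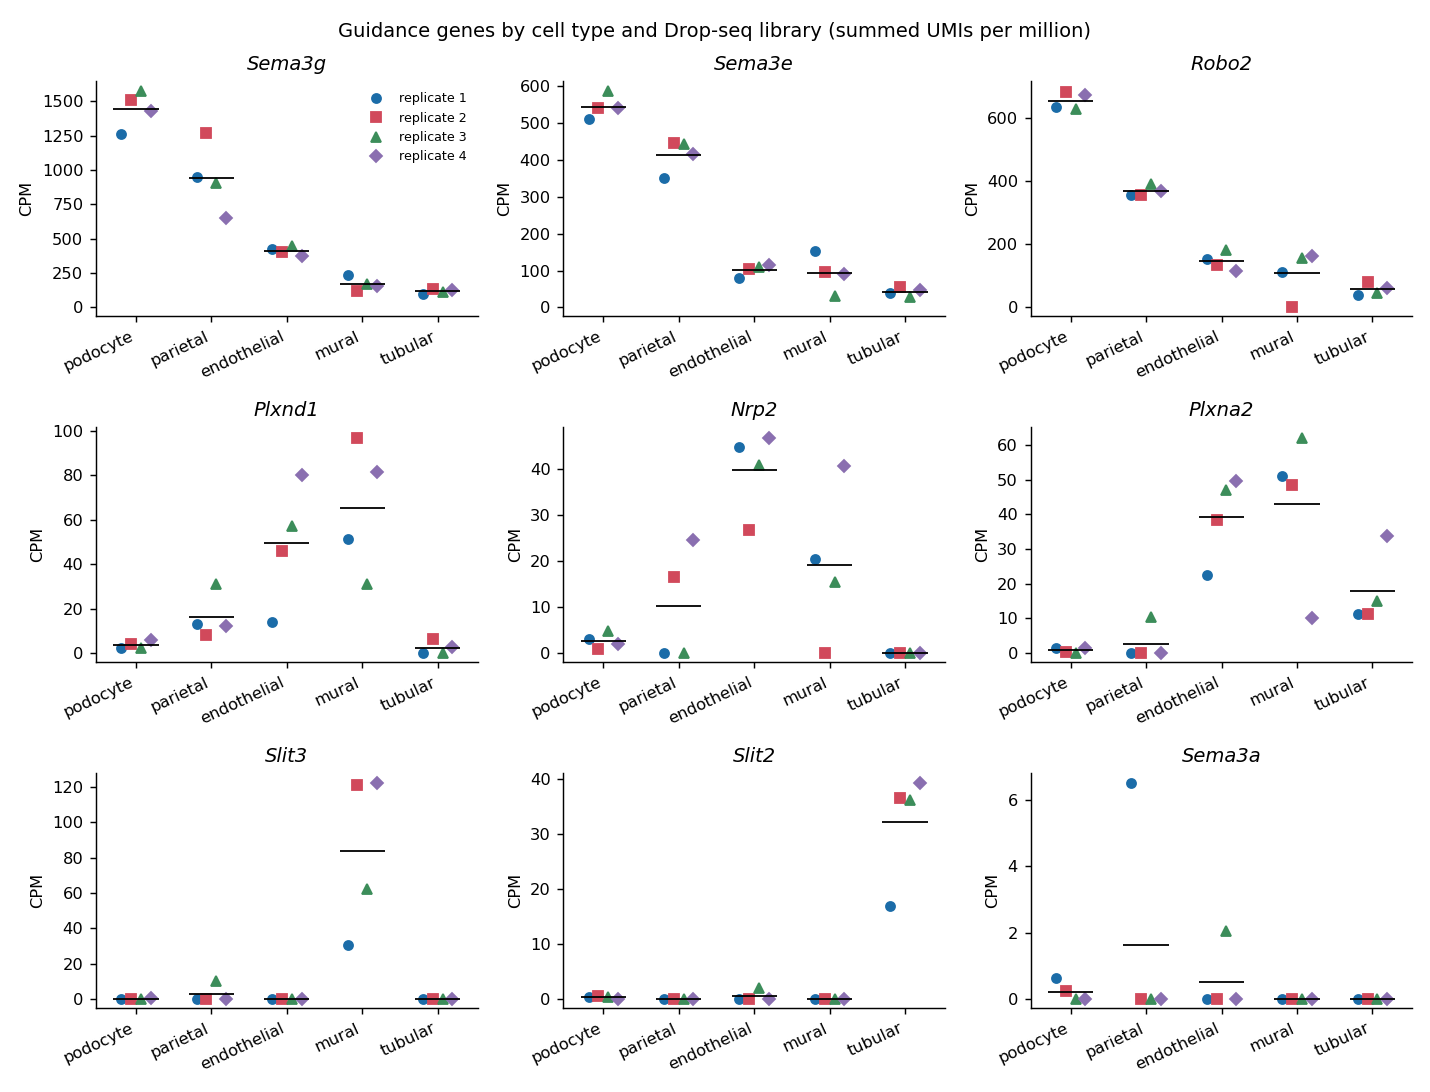
CPM (UMIs scaled to 1000000, linear axis, its range differing between panels) of the 9 genes in 5 cell types; each point is 1 of the 4 Drop-seq libraries and each line the mean of the 4. Sema3g, Sema3e and Robo2 are highest in podocyte-like cells in each library, and by mean Plxnd1, Nrp2 and Plxna2 are highest in endothelial-like and mural-like cells, Slit3 in mural-like and Slit2 in tubular-like cells.

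Sema3g, Sema3e and Robo2 were highest in podocyte-like cells. Sema3g, a ligand known from vessels and podocytes, had 1261, 1509, 1575 and 1433 CPM in the podocyte-like cells of replicates 1 to 4, a mean of 1445 ± 135.5 (SD, n = 4). Parietal epithelial-like cells had 945 ± 255 CPM, endothelial-like cells 411 ± 31.2, mural-like cells 170.0 ± 48.2 and tubular-like cells 118 ± 15.5. Within each library the podocyte-like cells were highest; replicate 2 of the parietal epithelial-like cells, at 1273 CPM, came above the podocyte-like cells of replicate 1. Its log2 fold in podocyte-like cells over the other types was 2.17 (SE 0.09, adjusted p = 1.9e-39, 4 of 4 libraries), 1.91 to 2.89 over the alternatives.

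Sema3e, whose product repels growing vessels through plexin D1, had 511, 540.5, 586 and 540.1 CPM in podocyte-like cells (544 ± 30.9). In parietal epithelial-like cells it had 415 ± 44.4 CPM, in endothelial-like cells 102 ± 16.4, in mural-like cells 93.2 ± 50.1 and in tubular-like cells 42.2 ± 11.7. No library of another type reached the podocyte-like range, and the log2 fold was 2.13 (SE 0.10, adjusted p = 3.4e-35, 4 of 4 libraries).

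Robo2, the Slit receptor, had 636, 683, 628 and 672 CPM in podocyte-like cells (655 ± 27.0). Parietal epithelial-like cells had 368 ± 16.9 CPM, endothelial-like cells 147 ± 28.4, mural-like cells 108 ± 75.1 (none in replicate 2) and tubular-like cells 56.9 ± 18.5. The 4 podocyte-like libraries did not overlap with any other type, and the log2 fold was 2.11 (SE 0.10, adjusted p = 6.6e-35, 4 of 4 libraries). For shares of cells with a UMI, cells were thinned to 500 UMIs. Those with fewer were left out (658 podocyte-like, 26 parietal epithelial-like, 378 endothelial-like and 21 tubular-like cells). Of the remaining 9796 podocyte-like cells 46.6% ± 3.02 had a Sema3g UMI, against 7.13% ± 2.80 of the 906 tubular-like cells (SD, n = 4 libraries). For Robo2 these shares were 25.4% ± 0.72 and 3.27% ± 1.34, and for Sema3e 20.7% ± 1.44 and 1.93% ± 0.85. Of 353 parietal epithelial-like cells, 31.6% ± 8.25 had a Sema3g UMI, 13.9% ± 3.57 a Robo2 UMI and 18.1% ± 2.1 a Sema3e UMI. In the same order, the shares of endothelial-like cells were 14.8% ± 2.44, 5.52% ± 1.45 and 3.70% ± 0.54. Without thinning, with medians of 1016 UMIs per podocyte-like and 1803 per tubular-like cell, Sema3g was seen in 68.1% ± 6.35 of podocyte-like and 14.6% ± 2.11 of tubular-like cells.

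The 250 bases before the start of these 3 genes are shown because the genes stood together at the top of the podocyte-like profile. They come from RefSeq on GRCm38.p6, read on the strand of the gene, and the capitals mark the letters CAGCTG, an E-box. The last 13 bases before Sema3g overlap a GENCODE exon, and Robo2 has 3 RefSeq starts, of which the one at the GENCODE gene start is printed.
Sema3g, chr14:31217623-31217872, plus strand: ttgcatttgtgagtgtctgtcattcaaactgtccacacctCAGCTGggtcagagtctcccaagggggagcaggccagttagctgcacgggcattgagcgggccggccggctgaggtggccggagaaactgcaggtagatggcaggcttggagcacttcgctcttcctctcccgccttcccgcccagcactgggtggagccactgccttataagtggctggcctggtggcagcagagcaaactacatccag
Sema3e, chr5:14025026-14025275, plus strand: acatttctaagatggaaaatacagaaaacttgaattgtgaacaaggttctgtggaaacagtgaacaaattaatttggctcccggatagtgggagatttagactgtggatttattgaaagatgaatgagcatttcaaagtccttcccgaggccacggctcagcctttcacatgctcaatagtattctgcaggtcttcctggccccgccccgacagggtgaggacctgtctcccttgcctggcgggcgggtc
Robo2, chr16:74411826-74412075, minus strand: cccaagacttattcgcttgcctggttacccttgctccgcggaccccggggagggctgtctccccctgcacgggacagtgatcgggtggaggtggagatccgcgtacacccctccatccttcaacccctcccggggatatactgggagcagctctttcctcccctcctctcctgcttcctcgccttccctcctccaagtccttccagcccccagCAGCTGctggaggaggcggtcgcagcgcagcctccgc
CAGCTG occurs once before Sema3g, 210 bases before the start, once before Robo2, 37 bases before the start, and not before Sema3e. It is found in 13% of the 32851 RefSeq windows of this length. Other motifs were searched on both strands, chosen after the sequences were seen: CACGTG (another E-box, in 6.02% of windows), TAATTA (4.84%), GCGTGGG (4.30%) and GTAAACA (3.17%). None of them lies in the printed windows. CACGTG occurs 18 bases before another Robo2 start, which is not printed. These matches describe letters, not binding.

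Sema3g, Sema3e and Robo2 were also higher in parietal epithelial-like cells than in the mean of the other types, by log2 folds of 1.34 (SE 0.12, adjusted p = 1.4e-16), 1.54 (SE 0.16, adjusted p = 1.8e-13) and 0.98 (SE 0.17, adjusted p = 2.0e-06). With a mitochondrial limit of 10%, not all higher calls of these 3 genes in podocyte-like and parietal epithelial-like cells remained. Set against all other cells summed, which are mostly podocyte-like, the 3 parietal epithelial-like log2 folds were -0.40, -0.18 and -0.62. Directly against podocyte-like cells, all 3 were lower in parietal epithelial-like cells, with log2 folds of -0.66 for Sema3g (adjusted p = 1.0e-05), -0.47 for Sema3e (adjusted p = 0.017) and -0.90 for Robo2 (adjusted p = 1.4e-06), each in 4 of 4 libraries (edgeR). In the same cells the 10 podocyte markers made up 1.24% to 1.78% of UMIs, with Podn at 0 in both, against 1.94% to 2.30% in podocyte-like cells. The 8 parietal markers made up 0.031% to 0.074% of UMIs in the parietal epithelial-like cells, against 0.00097% to 0.0020% in podocyte-like cells. The part of podocyte UMIs in the parietal epithelial-like levels was not tested.

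In the other types these 3 genes were lower where they passed the test. The log2 folds were -1.89 for Sema3g, -1.90 for Sema3e and -1.67 for Robo2 in tubular-like cells, and -1.65, -1.01 and -0.99 in mural-like cells (edgeR, all called). With a mitochondrial limit of 10% the tubular-like calls of Sema3e (-0.58, adjusted p = 0.099) and Robo2 (-0.15, adjusted p = 0.69) ended. Over all types, 4 calls of these genes ended under that limit, and 2 without cells with markers of 2 types. With at least 500 genes per cell 3 calls ended and 1 changed sign, some of them in mural-like or tubular-like cells. In endothelial-like cells Sema3e had a log2 fold of -0.76 (adjusted p = 4.5e-05), not called with at least 500 genes per cell (-0.34, adjusted p = 0.12), and Robo2 one of -0.43 (adjusted p = 0.013), not called without replicate 4 (-0.27, adjusted p = 0.22).

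The levels in mural-like and endothelial-like cells were uneven. A mural-like subcluster of 38 cells that scored highest for podocyte markers held 41 of the 54 mural-like Sema3g UMIs, 21 of 30 for Sema3e and 25 of 37 for Robo2. It averaged 934 CPM of Sema3g, 385 of Sema3e and 484 of Robo2, whereas the mural-like subclusters with mesangial and with smooth muscle and renin markers averaged 33.6 and 38.4 CPM of Sema3g, 30.6 and 51.7 of Sema3e and 43.7 and 32.4 of Robo2. Likewise an endothelial-like subcluster of 211 cells that scored highest for podocyte markers held 306 of the 609 endothelial-like Sema3g UMIs, 107 of 151 for Sema3e and 158 of 221 for Robo2. The mural-like subcluster with mesangial markers scored 0.82 for these and 0.72 for smooth muscle and renin markers, so its name is uncertain.

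Podocyte markers were present in every type. They made up 0.37% to 0.50% of UMIs in endothelial-like cells (10 of 10 markers), 0.25% to 0.45% in mural-like and 0.12% to 0.21% in tubular-like cells (9 of 10 each, Podn at 0). Robo2 had 3.03 UMIs per 100 podocyte-marker UMIs in podocyte-like cells and 2.56 to 3.65 in the 4 other tested types. Its libraries ran from 2.87 to 3.27 in podocyte-like cells, 0 to 6.25 in mural-like, 2.08 to 4.02 in tubular-like, 3.08 to 3.86 in endothelial-like and 2 to 3.16 in parietal epithelial-like cells. Sema3e had 2.49 per 100 in podocyte-like cells (2.35 to 2.68 over the libraries). Its pooled ratios were 2.30 to 2.96 in the 4 other tested types, with libraries between 1.25 and 3.57. The differences between these ratios were not tested. Sema3g had 6.62 per 100 in podocyte-like, 6.81 in parietal epithelial-like, 6.72 in tubular-like, 5.33 in mural-like and 9.29 in endothelial-like cells. The 4 endothelial-like libraries, at 8.51 to 10.1, lay above the 4 podocyte-like libraries, at 6.41 to 7.20. The few immune-like cells, too few for the tests, had 12.6 from 33 UMIs (5.88 to 16.8 over the libraries). Whether UMIs of podocytes give the levels of these 3 genes in other types was not tested.

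Between endothelial-like cells and the mean of the other types Sema3g did not pass the test (log2 fold 0.03, SE 0.11, adjusted p = 0.85, edgeR). The value changed sign under 8 alternatives and was -1.55 against all other cells summed. Within the endothelial-like cells the gene was uneven, and 4 subclusters were found. Subcluster 3 (152 cells) had the arterial markers Mgp and Fbln5 among its 10 leading genes and also scored 0.78 for venous markers; it is called arterial-like. Subcluster 2 (1083 cells) had the glomerular capillary markers Ehd3 and Igfbp5 there and is called capillary-like, and subcluster 1 (411 cells; Tspan8, Fxyd6, Thbs2, Calca) stayed unnamed. Subcluster 0 (211 cells) scored highest for podocyte markers.

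Sema3g had 730.1, 822, 607 and 759 CPM in the arterial-like cells of replicates 1 to 4, against 152.5, 94.1, 207 and 167 CPM in the capillary-like cells. The libraries did not overlap. The log2 fold of arterial-like over capillary-like cells was 2.33 (SE 0.25, adjusted p = 7.7e-10, edgeR over 1764 genes, 4 of 4 libraries) and lay between 1.74 and 2.56 over 8 alternatives (DESeq2, no filter, no block, a left-out library), the lowest without the filter on low counts. Podocyte markers made up 0.13% to 0.23% of UMIs in arterial-like and 0.14% to 0.18% in capillary-like cells. Per 100 podocyte-marker UMIs, Sema3g had 38.4 in arterial-like cells (26.3 to 64.7 over the libraries), 15.9 in subcluster 1, 9.83 in capillary-like cells and 6.76 in subcluster 0. Sema3e had 1.20 (3 UMIs) and Robo2 3.60 (9 UMIs) per 100 in arterial-like cells, against 2.40 and 3.52 in capillary-like cells. The arterial-like subcluster was no longer large enough once cells with markers of 2 types were removed.

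**Figure D2:**
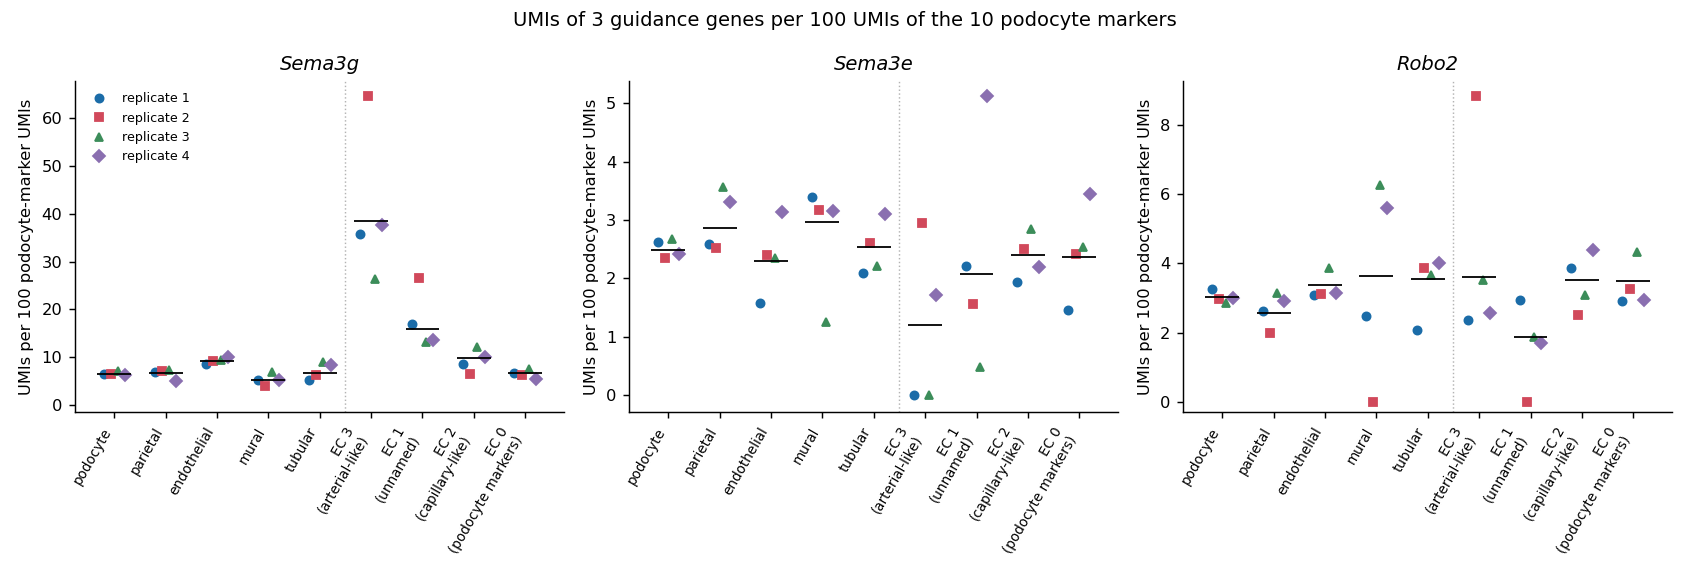
UMIs of Sema3g, Sema3e and Robo2 per 100 UMIs of the 10 podocyte markers (linear axes) in 5 cell types and, right of the dotted line, 4 endothelial-like (EC) subclusters; points are the 4 libraries and lines the pooled ratio. Sema3g stands at 38.4 in the arterial-like subcluster against 6.62 in podocyte-like cells, while the pooled ratios of Sema3e and Robo2 stay between 1.20 and 3.65.

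Only Sema3g, Sema3e and Robo2 had enough UMIs for tests of the subclusters, each set against the mean of the other 3. All 3 were higher in subcluster 0 (22.6% of all genes were higher and 20.1% lower there). Sema3g and Robo2 were lower in subcluster 1 (12% higher, 10.6% lower) and in the capillary-like subcluster (15.1% higher, 15.4% lower). The mean they were set against includes subcluster 0, with 532 CPM of Robo2. Subcluster 1 had 30.7, capillary-like cells 57.5 and arterial-like cells 73.4 CPM of it. Robo2 did not differ between subcluster 1 and capillary-like cells (adjusted p = 0.32, edgeR). Against arterial-like cells neither passed (adjusted p = 0.31 and 0.71, edgeR). Sema3g was higher in the arterial-like subcluster (10.4% higher, 5.39% lower), with a log2 fold of 1.09 (SE 0.21, adjusted p = 0.00011) that did not pass with the filter on low counts removed (0.72, adjusted p = 0.072). The call of Robo2 in the capillary-like subcluster (log2 fold -0.98, adjusted p = 0.028) ended without replicate 1 (-1.01, adjusted p = 0.060), replicate 2 (-0.83, adjusted p = 0.11) or replicate 3 (-0.84, adjusted p = 0.16). That of Sema3g in subcluster 1 (-0.86, adjusted p = 0.0014) ended without replicate 3 (-0.63, adjusted p = 0.051). Sema3g was higher in subcluster 0 than in subcluster 1 by a log2 fold of 1.98 (adjusted p = 6.8e-10, edgeR), whereas its difference of 0.52 between subcluster 0 and the arterial-like cells did not pass (adjusted p = 0.071).

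Podocyte-like cells fell into clusters made without the guidance genes. Sema3g averaged 2295 CPM in cluster 10 (621 cells), whose leading genes included Lars2, Neat1, Lamb2 and Itga3, and 1721 CPM in cluster 4 (1562 cells; Pdia4, Itga3, Col4a5). It averaged 939 CPM in cluster 6 (1608 cells; Nupr1, F3, Nfkbia). Against all other podocyte-like cells pooled, cluster 10 stood above and cluster 6 below in each of the 4 libraries, for Sema3g, Sema3e and Robo2 alike. Sema3e averaged 756 CPM in cluster 10, 680.3 in cluster 4 and 333 in cluster 6, and Robo2 812, 766 and 487 CPM. The order of single clusters varied between libraries: in replicate 2 Robo2 had 759.5 CPM in cluster 10 but 879 in cluster 11, and in replicate 1 Sema3e had 373 CPM in cluster 6 but 326 in cluster 11. Sema3e itself was among the 10 leading genes of cluster 4. These are values of clusters drawn from the same cells, so no test was made.

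**Figure D3:**
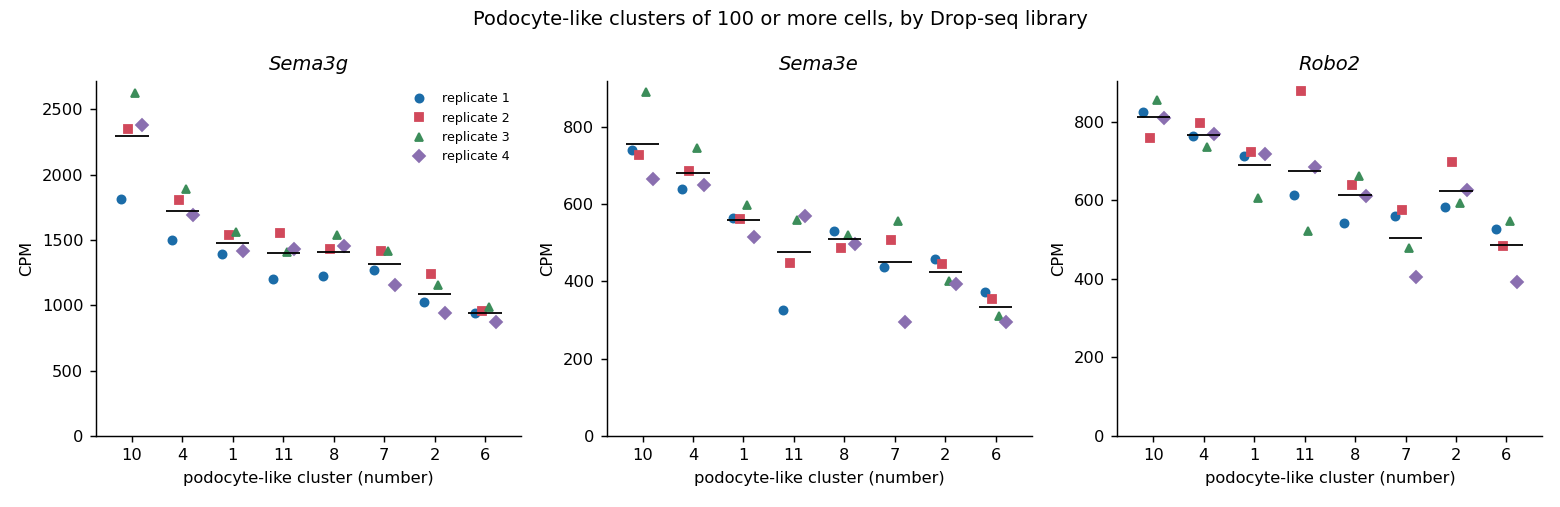
CPM (linear axes from 0) of Sema3g, Sema3e and Robo2 in the 8 podocyte-like clusters of 100 or more cells; points are the 4 libraries and lines their means. Cluster 10 is highest and cluster 6 lowest by mean for all 3 genes.

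The receptors Plxnd1, Nrp2 and Plxna2 were highest by mean in endothelial-like and mural-like cells. They were hardly found in podocyte-like cells, where Sema3g and Sema3e were highest. Sema3g also had 411 CPM in endothelial-like cells, more than each of these receptors had there. Plxnd1, the receptor of Sema3e, had 14.0, 46.0, 57.3 and 80.0 CPM in endothelial-like cells and 51.2, 96.9, 31.1 and 81.3 in mural-like cells. Podocyte-like cells had 2.49, 4.14, 2.20 and 5.77 CPM, parietal epithelial-like cells 16.1 ± 10.1 and tubular-like cells 2.34 ± 3.11 (SD, n = 4). The vascular libraries all lay above the podocyte-like ones, but replicate 1 of the endothelial-like cells rested on 5 UMIs and overlapped with the parietal epithelial-like cells. The log2 fold over the other types was 2.21 in endothelial-like (SE 0.33, adjusted p = 1.3e-08) and 2.46 in mural-like cells (SE 0.52, adjusted p = 8.4e-05), against -2.53 in podocyte-like (SE 0.39, adjusted p = 3.6e-08) and -2.18 in tubular-like cells (SE 0.54, adjusted p = 0.00033). Plxnd1 passed the filter on low counts only through endothelial-like and mural-like libraries and replicate 3 of the parietal epithelial-like cells. Its calls in the tests are therefore no support for the difference.

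Plxna2, a plexin that works with neuropilins, had 22.5, 38.3, 47.1 and 49.7 CPM in endothelial-like cells and 51.2, 48.4, 62.1 and 10.2 in mural-like cells, the last from 1 UMI. It had 17.8 ± 10.7 in tubular-like, 2.58 ± 5.16 in parietal epithelial-like (1 UMI) and 0.84 ± 0.74 in podocyte-like cells (11 UMIs, none in replicate 3). It was higher in endothelial-like cells (log2 fold 2.64, SE 0.41, adjusted p = 4.6e-08), mural-like cells (2.46, SE 0.67, adjusted p = 0.0036) and tubular-like cells (1.47, SE 0.48, adjusted p = 0.0066), and lower in podocyte-like cells (-4.02, SE 1.03, adjusted p = 0.00068). Plxna2 passed the filter on low counts only through endothelial-like, mural-like and tubular-like libraries. Its calls in the tests are therefore no support for these differences. Single libraries decided some of these calls: the mural-like one ended without replicate 1 (2.03, adjusted p = 0.084), the tubular-like one without replicate 4 (0.97, adjusted p = 0.16) and the podocyte-like one without replicate 3 (-2.62, adjusted p = 1).

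Nrp2, a neuropilin that binds Sema3g, had 44.9, 26.8, 40.9 and 46.9 CPM in endothelial-like cells (60 UMIs), against 20.5, 0, 15.5 and 40.7 in mural-like cells (7 UMIs). It had 2.72 ± 1.67 CPM in podocyte-like cells (31 UMIs) and no UMI in 4 of 4 tubular-like libraries. Endothelial-like cells stood 16.9-fold above podocyte-like cells by pooled CPM (95% counting interval 10.8 to 26.9) and at least 28.7-fold above tubular-like cells, taking 3 UMIs over the 4 libraries as the floor. In the test, Nrp2 was higher in endothelial-like (adjusted p = 2.0e-10) and mural-like cells (adjusted p = 0.031) and lower in tubular-like cells (adjusted p = 9.3e-05, edgeR). The mural-like call ended without replicate 1 (adjusted p = 0.11) or replicate 3 (adjusted p = 0.060), and without replicate 4 Nrp2 was not tested. Against podocyte-like cells the endothelial-like log2 fold was 3.95 (SE 0.41, adjusted p = 2.7e-14, edgeR). Since Nrp2 passed the filter on low counts only through endothelial-like and mural-like cells, its calls in the tests are no support for the difference.

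Endothelial-like and mural-like cells did not differ past the threshold in Plxnd1 (log2 fold -0.20, SE 0.46, adjusted p = 0.81), Plxna2 (0.15, SE 0.56, adjusted p = 0.89) or Nrp2 (1.01, SE 0.64, adjusted p = 0.28). With 324 mural-like cells these errors leave room for differences of more than 2-fold. Among the endothelial-like subclusters Nrp2 had 39 UMIs in capillary-like cells (49.7 CPM on average), 14 in subcluster 1 (52.6 CPM) and none in arterial-like cells. Plxnd1 had 51 UMIs (64.8 CPM) in capillary-like and 8 (45.3 CPM) in arterial-like cells, and Plxna2 32 (40.9 CPM) and 11 (86.6 CPM). In mural-like cells, the subcluster with mesangial markers (140 cells, its name uncertain) held 6 of the 7 Nrp2 UMIs, 9 of 19 Plxnd1 UMIs and 7 of 12 Plxna2 UMIs. These counts were too low for tests.

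The Slit ligands lay outside the podocyte-like cells that carried Robo2. Slit3 had 30.7, 121, 62.1 and 122 CPM in mural-like cells, from 24 UMIs, and none in endothelial-like and tubular-like cells. There were 2 UMIs in podocyte-like cells and 1 in parietal epithelial-like cells. Mural-like cells had at least 38.9-fold more than endothelial-like and at least 55.8-fold more than tubular-like cells, with the same floor of 3 UMIs, and 509-fold more than podocyte-like cells (counting interval 126 to 4441). Since Slit3 passed the filter on low counts only through the mural-like cells, its calls in the tests are no support for the difference. The mural-like subcluster that scored highest for smooth muscle and renin markers (131 cells) held 17 of the 24 UMIs (155 CPM, counting interval 90.4 to 248), and the subcluster with mesangial markers held 7 (58.9 CPM, 23.7 to 121).

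Slit2, the best known ligand of Robo2, had 17.0, 36.6, 36.3 and 39.2 CPM in tubular-like cells (71 UMIs). It had 4 UMIs in podocyte-like cells, 1 in endothelial-like cells and none in mural-like or parietal epithelial-like cells. By pooled CPM, tubular-like cells had 108-fold more than podocyte-like cells (counting interval 40.3 to 407). The distal tubule cluster (709 cells, leading genes Umod and Pvalb) and the collecting duct cluster (218 cells, Aqp2 and Hsd11b2) had similar levels, 32.4 and 31.3 CPM. Sema3a, the class 3 semaphorin first known for collapsing growth cones, had 5 UMIs over all barcodes, 3 of them in podocyte-like cells, so no level can be given for any cell type.

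For each gene tested, the 3 most similar genes by Pearson correlation of log2 CPM over the 20 sums of library and cell type are given as a description, since the sums share libraries and cell types. For Sema3g they were Tmod3 (0.98), Podxl (0.98) and Fnbp1l (0.96), for Sema3e they included Htra1 (0.98) and Nap1l1 (0.97), and for Robo2 they were Pdpn (0.97), Hspb8 (0.96) and Tdrd5 (0.96). Podxl and Pdpn are genes known from podocytes. Plxnd1 was nearest to Prkcdbp (0.91), Kctd10 (0.89) and Ets2 (0.89), Plxna2 to Rnf125 (0.90), Sorbs2 (0.89) and Gadd45g (0.88), and Nrp2 to Lpcat1 (0.90), Top1 (0.85) and Elk4 (0.84). Slit3 was nearest to Gpc6 (0.95), Stbd1 (0.95) and Myocd (0.95), the last a coactivator of smooth muscle genes.

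Of 87 other genes of the guidance families, in 5 lists, 37 could be tested. In endothelial-like cells 21 were higher and 8 lower, in podocyte-like cells 15 and 12, and in parietal epithelial-like cells 13 and 1. Mural-like cells had 10 higher and 6 lower, and tubular-like cells 4 and 22; the shares of all genes are those given above. Their median log2 fold was 0.60 in endothelial-like, 0.61 in parietal epithelial-like, 0.01 in podocyte-like, -0.06 for mural-like and -1.63 for tubular-like cells. Among the other semaphorins, 6 of 7 tested were higher in endothelial-like cells and none was lower. The membrane-bound semaphorins Sema6a (106 ± 27.5 CPM in endothelial-like and 1.46 ± 1.11 in podocyte-like cells), Sema6d (53.0 ± 21.3 and 0.66 ± 0.20) and Sema7a (63.2 ± 10.2 and 1.18 ± 0.60) led. The log2 folds over the other types were 4.93 for Sema6a and 5.14 for Sema7a, and none is given for Sema6d, which had no UMI in parietal epithelial-like cells.

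Of 3 other semaphorin receptors tested, Nrp1, the receptor of Sema3a that also binds VEGF, was higher in endothelial-like cells (979 ± 163 CPM; log2 fold 2.72, adjusted p = 2.2e-44) and mural-like cells (558 ± 124 CPM; 1.56, adjusted p = 2.2e-14). It was lower in podocyte-like cells (137 ± 22.6 CPM; -0.94, adjusted p = 1.3e-12). Plxnb1 was higher in podocyte-like cells (0.95, adjusted p = 0.0013) and lower in endothelial-like cells (-2.48, adjusted p = 5.1e-05). None of the 4 other Slit and Robo genes passed the filter; Robo4, the endothelial Robo, had 47 UMIs in endothelial-like cells, and Robo1 14 in mural-like cells.

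Of 19 intracellular mediators tested, 8 were higher and 5 lower in podocyte-like cells. Srgap1, which binds Robo receptors inside the cell, had 543 ± 34.9 CPM there (log2 fold 1.86, adjusted p = 4.6e-32), Pak1, a kinase downstream of Rac and Cdc42, 834 ± 97.2 CPM (2.17, adjusted p = 1.5e-36) and Fyn, which phosphorylates nephrin, 171 ± 7.59 CPM (1.46, adjusted p = 3.0e-16). Dpysl3 (-4.83) and Mical2 (-3.41) were lower in podocyte-like cells, and in mural-like cells Rnd2 (5.39), Dpysl3 (4.06) and Mical2 (3.20) were higher. Of 8 netrin and ephrin genes, 4 were higher and 4 lower in podocyte-like cells: Unc5c (2.04), Ephb1 (1.86) and Efnb1 (1.36) led the higher ones and Ephb4 (-4.92), Ntn4 (-3.92) and Efna1 (-2.66) the lower ones. In endothelial-like cells Ephb4 (2.98), Efnb2 (2.79) and Ntn4 (2.47) were higher.

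The bulk libraries set dissociated, fixed cells against whole, unfixed glomeruli. They are 1 library each, so no test was possible, intervals cover counting error only, and dissociation, sorting, fixation, RNA input and the library itself cannot be told apart. In bulk RNA, fewer cells of a type and less RNA per cell cannot be told apart either. Of the 8 genes with at least 100 counts over both libraries, 2 were higher by 2-fold or more in dissociated cells (10.7% of 12692 genes) and 4 lower (18.9%). The median log2 ratio of the 8 was -0.88, against -0.01 for all genes.

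The genes of the podocyte-like profile were higher in dissociated cells. Sema3g had 5916 CPM in dissociated cells and 3055 in whole glomeruli, a log2 ratio of 0.95 (0.94 to 0.97). Sema3e had 483 and 212 CPM (1.19, 1.14 to 1.23), and Robo2 808 and 361 CPM (1.16, 1.13 to 1.20). The 10 podocyte markers had a median log2 ratio of 1.10, with 7 of them 2-fold higher and 1, Podn, 2-fold lower (-2.93). Without the TMM scaling factor the median of all genes was -0.32, and the ratios of Sema3g, Sema3e and Robo2 were 0.64, 0.87 and 0.85, so that none passed 2-fold.

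The vascular receptors were lower. Plxnd1 had 59.8 CPM in dissociated cells and 461 in whole glomeruli (log2 ratio -2.94, -3.03 to -2.86), Nrp2 17.2 and 119 (-2.79, -2.95 to -2.64) and Plxna2 20.8 and 83.2 (-1.999, -2.15 to -1.86). Slit3 had 5.13 and 13.6 CPM (-1.39, -1.72 to -1.10), and Slit2 4.496 and 5.78 CPM (-0.36, -0.73 to -0.0013). The 10 endothelial markers had a median log2 ratio of -1.71 (8 of them 2-fold lower), 7 mesangial markers -4.82, 8 arterial markers -1.51 and 6 smooth muscle and renin markers -0.03. The part of these markers' shift in the receptors' values was not tested. Sema3a had 3 counts in dissociated cells and 21 in whole glomeruli, too few to compare.

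**Figure D4:**
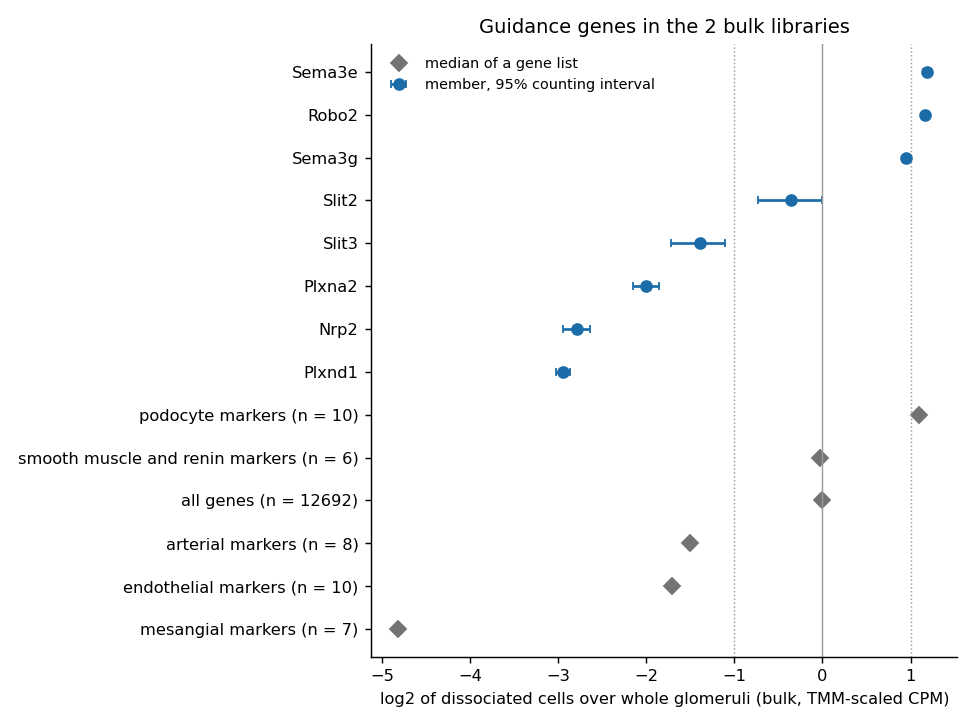
Log2 ratio of dissociated cells over whole glomeruli (bulk, TMM-scaled CPM, 1 library each) for 8 guidance genes, with 95% counting intervals, and medians of marker gene lists below them; dotted lines mark 2-fold. Sema3e, Robo2 and Sema3g lie near the podocyte markers at 1.10, and Plxna2, Nrp2 and Plxnd1 lie below the endothelial markers at -1.71.

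Per kilobase of GENCODE vM21 exon (the annotation behind the deposited counts is not given in the sources used here), the order of the 9 genes also differed between the bulk libraries. Sema3g led in both, with 1303 CPM per kb in dissociated cells and 673 in whole glomeruli. Sema3e (52.0), Robo2 (47.6) and Plxnd1 (8.19) followed in dissociated cells. In whole glomeruli the order was Plxnd1 (63.1), Sema3e (22.9), Robo2 (21.3) and Nrp2 (10.04). Sema3a was last in both, at 0.0098 and 0.048 CPM per kb. Of the other guidance genes past 2-fold, the ephrin receptor Epha3 (0.41 CPM in dissociated cells and 40.2 in whole glomeruli, log2 ratio -6.38), Dpysl3 (-2.74), Nrp1 (-2.38) and Robo1 (-2.35) were lowest in their lists. The small GTPase gene Rnd1 (26.5 and 2.94 CPM, log2 ratio 3.14), Epha2 (3.08) and Sema4a (1.29) were highest in theirs.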

How the data were processed

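The deposited Drop-seq tables held UMI counts per gene and barcode, and the deposited bulk tables held read counts per gene with HTSeq summary lines. STAR and HTSeq are named in the submitters' processing notes; versions, genome build and annotation are not given in the sources used here. The bulk kit was strand-specific, per the labels. The Drop-seq tables list only genes with a UMI, so a gene missing from a table was taken as 0.

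Barcodes with under 300 genes (888) or over 20% of UMIs from mitochondrial genes (584) were removed, and the rest clustered (scanpy 1.11.5: 2000 variable genes, 30 components, Leiden resolution 1) without 96 guidance genes. Clusters were named from marker lists. No doublet caller was run. Cells with at least 2 UMIs of markers of each of 2 types (11.9% of kept cells) were removed in an alternative. They made up 3.40% of podocyte-like, 22.4% of parietal epithelial-like, 34.9% of mural-like, 36.6% of endothelial-like and 45.2% of tubular-like cells. UMIs summed per library and type were tested with edgeR 4.0.16 (TMM, library as a block, since the types of a library share its cells); types needed 20 cells in 3 libraries. Bulk log2 ratios used TMM-scaled CPM with a prior count of 2 and genes with at least 100 counts. HTSeq's reads on no feature were kept out of library sizes and made up 6.14% (dissociated cells) and 9.68% (whole glomeruli) of the deposited total. Intervals are exact 95% ones. The members and gene lists were chosen with earlier results of these data known. Beside the 9 members, the named guidance genes are up to 3 per list and cell type in each direction with the largest called change, same in every library, and up to 3 per list in bulk; not all are printed. Gene positions are from GENCODE vM21 and promoters from RefSeq (9 of 9 members matched). No exon of a member overlaps another GENCODE gene. The fit was tested on simulated data, but no outcome is given here. Alternatives were DESeq2 1.42.0, other filters, clusterings and left-out libraries. One of the genes most similar to Sema3e is not reported here.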

Additional observations from a re-analysis of the deposited data

Results flagged for a closer look

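Of 26 sets of 4 libraries (a gene in a cell type with at least 10 UMIs), 1 held a library far from the others; chance gives about 1 in 20. Slit2 in the tubular-like cells of replicate 1 had 17.0 CPM from 6 UMIs, against 36.3 to 39.2 CPM in the other 3 libraries.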

How the results depend on the processing

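Some alternatives left fewer genes to test: only Sema3g, Sema3e and Robo2 of the 9 passed the filter with at least 500 genes per cell, with a mitochondrial limit of 10% and without cells with markers of 2 types. Under these, in that order, the members higher by cell type numbered 6, 5 and 6 (14 in the report), the members lower 4, 6 and 6 (12), and the tests between pairs 28, 20 and 26 (49). The other guidance genes higher numbered 22 under the mitochondrial limit and 36 without mixed cells (63), and those lower 32, 19 and 24 (49). Without mixed cells only 2 endothelial-like subclusters were large enough and only Sema3g was tested, so 0 members passed against 8 (edgeR and DESeq2, 1 at an unadjusted p under 0.05 in each; log2 fold 0.96 and 1.08, adjusted p = 0.066 and 0.20). Leaving out replicates gave 10 to 14 higher, 10 to 12 lower, 34 to 47 between pairs, 55 to 59 and 37 to 46 for the other guidance genes and 6 to 8 in subclusters. Without the replicate block these counts were 14, 12, 47, 62, 44 and 8. Without TMM scaling 0 bulk members were 2-fold higher. The share of podocyte-like cells with a Sema3g UMI (46.6%) was 70.3% at 1000 UMIs and 68.1% unthinned.

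Signs changed as follows. Sema3g in endothelial-like cells (0.03) was -0.032 with DESeq2 size factors, -0.028 with DESeq2's test, -0.38 under the 10% limit (adjusted p = 0.035), -0.026 with guidance genes kept in the clustering, -0.18 without the subclusters with podocyte or endothelial markers (chosen after seeing the data), -0.10 to 0.044 with a replicate left out (-0.02 without replicate 1), and -1.55 against all other cells summed. Plxnd1 in parietal epithelial-like cells (0.03) was -0.20 without a filter, -0.074 without the replicate block and -0.50 to 0.84 with a replicate left out (-0.15 without replicate 1). Robo2 in endothelial-like cells (-0.43) was 0.034 with 500 genes per cell. Robo2, Sema3e and Sema3g in parietal epithelial-like cells were -0.62, -0.18 and -0.40 against all other cells summed. The cause of these changes was not tested. Of the log2 folds called by cell type or subcluster, 354 of their repeats kept direction and call, 20 lost the call and 4 changed sign. Left out of this tally were Nrp2, Slit2, Slit3 and Sema3a, and settings in which a gene was not tested. Depth limits the rare genes: Slit3 rested on 24 mural-like UMIs and Sema3a on 5 in all.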
